A study of Mus musculus with 12 samples.

Results

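Ribosome biogenesis factors and the RNA polymerase I machinery were described in the livers of mouse fetuses whose mothers had eaten a control or a high-fat diet (HFD). The 52 genes were chosen by their function and their symbol, with earlier results of the diet comparison in these livers known, and all 52 had a row among the 30743 rows of the table. The C57BL/6J dams were fed chow with 13.5 kcal% fat or an HFD with 60 kcal% fat for 12 to 14 weeks, and the liver of 6 male fetuses per diet was taken whole at 15 ± 0.5 dpc (days post coitum) for polyA-selected RNA-seq. Whole liver at this age holds hepatocytes and blood-forming cells together, and litters are not named in the labels.

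The value analysed for each gene is the authors' average level over all 12 libraries, in log2 CPM (counts scaled to a common library size). It carries no spread between livers. The diet comparison in the table is the authors' own, and neither its fold changes nor its p-values were used, so no difference between HFD and control is given here for any gene. Values of single livers were not analysed here. What follows describes the level of each gene in the 15 dpc liver, with no test.

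Ribosomes are built in the nucleolus. RNA polymerase I (Pol I) transcribes a long precursor of the ribosomal RNAs, with the help of the initiation factors Rrn3, Ubtf and Taf1d. Small nucleolar RNAs (snoRNAs), bound to proteins in box C/D and box H/ACA particles, guide the chemical modification of that precursor, and many assembly factors then fold, cut and export the small and the large subunit. Growing and dividing cells are known for high activity of this pathway, and the fetal liver is a site of rapid blood cell production.

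The 52 genes were mostly well expressed, with 47 above 1 CPM and 44 above 10 CPM. Of all rows, 33.1% were above 1 CPM. The median member stood at 85.9 CPM, and 48.1% of the members lay between 10 and 100 CPM, against 18.1% of all protein coding genes. Together the 52 genes held 6816 CPM, or 0.678% of the table, and 44.6% of that belonged to nucleolin (Ncl, 2265 CPM), the RNA helicase gene Ddx21 (447 CPM) and Nop58 (329 CPM).

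**Figure D1:**
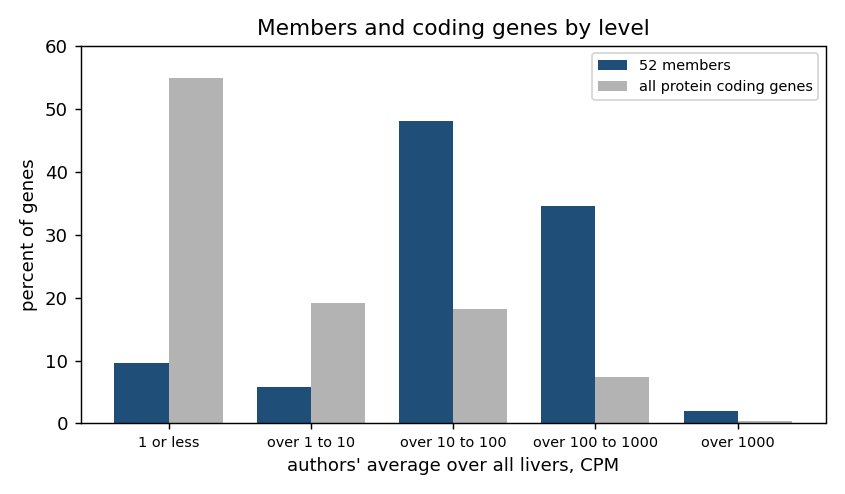
Percent of the 52 members (blue) and of all protein coding genes (grey) in each range of the authors' average CPM. The members are most frequent between 10 and 100 CPM (48.1%), where 18.1% of coding genes lie, and 9.62% of them are at 1 CPM or less, against 54.9% of coding genes.

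For comparisons between members, levels were divided by the longest annotated transcript in kb, with coding length given where it changes the picture. On that scale the median member was at 26.4 CPM per kb (4.72 on the log2 scale), and the median of the 9104 protein coding genes above 1 CPM was 5.0 CPM per kb (log2 2.32). Of the 52 members, 41 lay above that background median, and 8 lay above its 90th percentile. On the log2 scale of the level per kb, the interquartile range of the members was 2.11 and that of the background 4.25, while the SD over genes was 3.22 for the members, the 5 lowest listings included, and 2.73 for the background. Per kb of coding length the median member was at 5.40 on the log2 scale and the background at 3.52.

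A low value in this table cannot be read as low expression. The lowest value, -2.71 log2 CPM, is shared by 11091 rows and stands for no counted reads. It was also the value of Mcm5, whose product forms a ring helicase with those of Mcm2, Mcm3, Mcm4, Mcm6 and Mcm7, while Mcm2 stood at 9.75 log2 CPM and Mcm3 at 9.27. Among the 6 ATPases of the 26S proteasome, which every cell needs, Psmc1 was listed at -1.80 log2 CPM and Psmc3 at 8.76. Of 77 genes of cytosolic ribosomal proteins 4 were at the lowest value, and 10 were under 1 CPM. These complexes were picked after their values were seen. For a gene listed near the lowest value, only the listing is reported here, and no ratio to another gene is given.

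The number of curated transcripts that RefSeq gives a gene was set beside the low listing. Under 1 CPM were 4 of the 43 members with 1 such transcript (9.30%) and 1 of the 9 with 2 or more (11.1%). Of those 9 members, 6 were below the background median per kb of the longest transcript (Taf1d, Ubtf, Polr1e, Noc2l, Rrp1b and Wdr12). Among the 43 members with 1 transcript, 5 were below that median (Polr1a, Gnl3, Mybbp1a, Wdr43 and Tsr1). Per kb of coding length the background median was 11.4 CPM, with Taf1d above it at 14.7 and Heatr1, with 1 transcript, below it at 7.87. In the other pathway genes, the other polymerase, assembly and exosome genes of fixed lists, 7 of 91 genes with 1 transcript were under 1 CPM, as were 8 of 24 with 2 and 10 of 14 with 3 or more. Over all protein coding genes the shares were 51.5%, 57.5% and 61.5%. This feature was picked after the values were seen and after several others had been looked at (overlapping genes, strand, chromosome, name matching, length, exon number, and GENCODE and predicted transcripts). Its part in the levels was not tested, and Dkc1, with 4 transcripts, was listed at 8.07 log2 CPM.

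**Figure D2:**
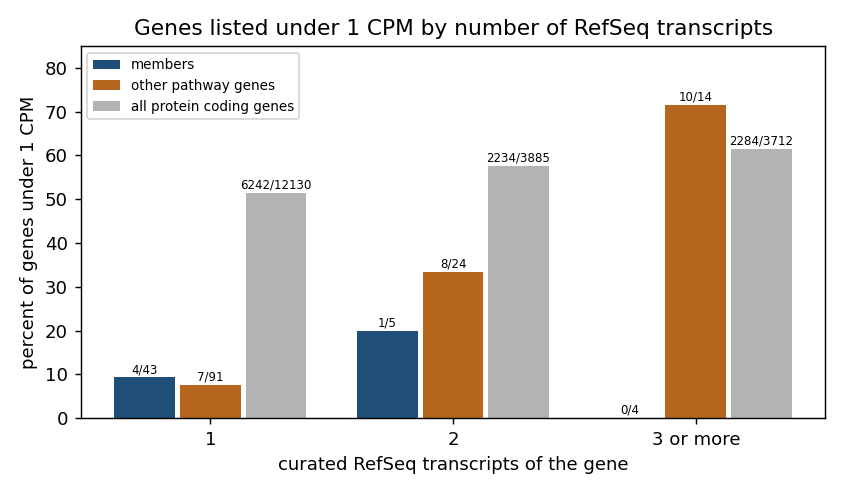
Percent of genes listed under 1 CPM (y axis) by the number of curated RefSeq transcripts (x axis), for the 52 members, the other pathway genes and all protein coding genes, with the counts above the bars. In the other pathway genes the count goes from 7 of 91 to 10 of 14, while none of the 4 members with 3 or more transcripts is under 1 CPM.

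The box H/ACA particle had the highest median of the 6 roles, 98.2 CPM per kb. Its enzyme dyskerin (Dkc1), which turns uridine into pseudouridine, stood at 96.0 CPM per kb. The partner proteins Nhp2 and Nop10 were at 124 and 100.4 CPM per kb, and Gar1 was at 60.5 CPM per kb. The highest and the lowest of the 4 thus differed by 2.04-fold, the narrowest range among the roles. Per kb of coding length the range widened, because the very short Nop10 then stood at 580 CPM per kb and Gar1 at 111 CPM per kb.

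The box C/D particle uses the methyltransferase fibrillarin (Fbl) on a scaffold of Nop56 and Nop58. Nop56 was listed at 53.9 CPM per kb, Nop58 at 34.6 and Fbl at 14.3 CPM per kb. The order of the scaffold genes depended on the length used: per kb of coding length Nop58 was at 205 and Nop56 at 112 CPM per kb. The longest annotated transcript, of any kind, has 9507 bases for Nop58, 3627 in 5 exons for Nop56 and 2411 in 1 exon for Fbl. In the search for copies given below, the Nop56 and Fbl transcripts had 1877 and 1197 bases, so their levels per kb depend on the transcript taken. Fbl stayed the lowest of the 3, at 35.1 CPM per kb of coding length. Fbl also has 2 processed pseudogenes that match it at 90% identity or more over at least 500 bases. In addition, 690 bases of its transcript match Tulp4 at 99.6%, so reads could be shared and its value is uncertain. Nop56 has 4 such pseudogene copies, so the same limit applies to its value and to its place above Fbl. By this criterion 12 of the 52 members have a pseudogene copy, among them Ncl, Dkc1 and Imp3 with 1 each.

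Nucleolin, an abundant RNA-binding protein of the nucleolus, was the highest of all 52 genes on either length, at 276 CPM per kb of the longest transcript and 1068 CPM per kb of coding length. Ddx21, a helicase that acts on ribosomal RNA transcription and processing, was at 94.7 CPM per kb. Nucleophosmin (Npm1), a chaperone of ribosome assembly, was listed at 27.9 CPM per kb. That value is uncertain, since Npm1 had 7 processed pseudogene copies by the same criterion, the most of any member, and has 3 curated transcripts. Mybbp1a, the gene of a nucleolar protein that binds Myb, was at the lowest value of the table, with no counted reads.

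Among the Pol I genes, 5 of 7 were above 1 CPM. Polr1c, a subunit that Pol I shares with Pol III, stood at 67.1 CPM per kb. Rrn3, which brings Pol I to the promoter of the ribosomal RNA genes, was at 27.6 CPM per kb and Polr1b, the second largest subunit, at 24.5 CPM per kb. Ubtf, which keeps the ribosomal RNA genes open, and Taf1d, a part of the promoter selectivity factor, were lower, at 2.37 and 2.91 CPM per kb. Both have more than 1 curated transcript, and per kb of coding length Taf1d was at 14.7 CPM. The longest Taf1d transcript has 4881 bases, while the one used in the search for copies had 1148. Taf1d also has 1 processed pseudogene copy, so its value is uncertain. Polr1a, the largest subunit and part of the catalytic centre, was listed at 0.774 CPM, which amounts to 97.9 reads over the 12 libraries. Polr1e was listed at -2.66 log2 CPM, which amounts to 1.01 reads over the 12 libraries. Since the largest and the second largest subunit work in 1 enzyme, the value of Polr1a is given as a listing only. The median of the 7 genes was 1.54 on the log2 scale per kb, and 4.61 without Polr1a and Polr1e. Its place relative to the background depended on the length used. Per kb of the longest transcript it was 2.91 CPM against 5.0 for the background, and per kb of coding length 14.7 against 11.4.

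Other polymerase genes are set beside these values, and their low listings cannot be read as low expression either. The 7 subunits particular to Pol II had a median of 60.5 CPM per kb, from Polr2a at 1.19 to Polr2j at 100.3 CPM per kb. The 11 subunits of Pol III had a median of 10.3 CPM per kb, with Crcp highest at 35.7 CPM per kb and Polr3e at the lowest value. The 5 subunits common to the polymerases ranged from Polr2k at 3.05 to Polr2e at 54.6 CPM per kb. Among 8 Pol I genes outside the 52, 4 were above 1 CPM, and Polr1d was highest at 68.0 CPM per kb, while Taf1c was at the lowest value. All 5 common subunits and all 7 Pol II subunits were above 1 CPM, as were 10 of the 11 Pol III subunits.

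The 15 genes of large subunit assembly were all above 1 CPM, with a median of 41.2 CPM per kb. The highest were Ftsj3, an RNA methyltransferase, at 75.6 CPM per kb, the GTPase gene Gnl2 at 57.9 CPM per kb, and Nop2, another RNA methyltransferase, at 53.7 CPM per kb. Nop16, Brix1, Pes1, Rrs1, Bop1, Ebna1bp2, Ddx18, Noc3l and Noc2l followed, from 50.2 CPM per kb for Nop16 down to 4.00 for Noc2l. The lowest were nucleostemin (Gnl3) at 0.931 CPM per kb, Rrp1b at 0.887 and Wdr12 at 0.257 CPM per kb.

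Pes1, Bop1 and Wdr12 form the PeBoW complex, which matures the RNA of the large subunit. Pes1 and Bop1 were close to each other, at 45.5 and 41.2 CPM per kb. Wdr12 was listed at 2.57 CPM before division by length, has 3 curated transcripts and a longest transcript of 10012 bases, and per kb of coding length was at 2.03 CPM. Wdr12 was thus listed below its partners on either length, though the choice of length does not bear on how its reads were counted. Pes1 and Wdr12 each had 2 processed pseudogene copies.

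In small subunit assembly 17 of 19 genes were above 1 CPM, and the same 17 were above 10 CPM, with a median of 17.6 CPM per kb for the 19. Imp3, which binds the U3 snoRNA, was highest at 92.4 CPM per kb. Noc4l, which works with Nop14, was at 57.7 CPM per kb and Ltv1, a late assembly factor, at 42.9 CPM per kb. The next 13 genes (Nop14, Rrp9, Ddx10, Bysl, Nol6, Nob1, Utp14a, Imp4, Utp15, Rrp12, Wdr75, Utp20 and Heatr1) ran from 37.4 CPM per kb for Nop14 to 7.47 for Heatr1. The lowest were Utp18 at 5.94 CPM per kb and, close to the lowest value of the table, Wdr43 and Tsr1. Wdr43 amounts to 3.00 reads over the 12 libraries and Tsr1 to 2.02. For Tsr1, 32.3% of the exonic bases overlap Srr on the other strand, and the library kit does not mark strand. For Wdr43 the share that overlaps a gene on the other strand was 1.26%. Whether such overlap bears on the listed values was not tested.

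Imp3 and Imp4, partners in the U3 particle, stood at 92.4 and 17.6 CPM per kb. Per kb of coding length they were at 155 and 118 CPM per kb, so most of the gap came with the longest Imp4 transcript of 5836 bases.

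**Figure D3:**
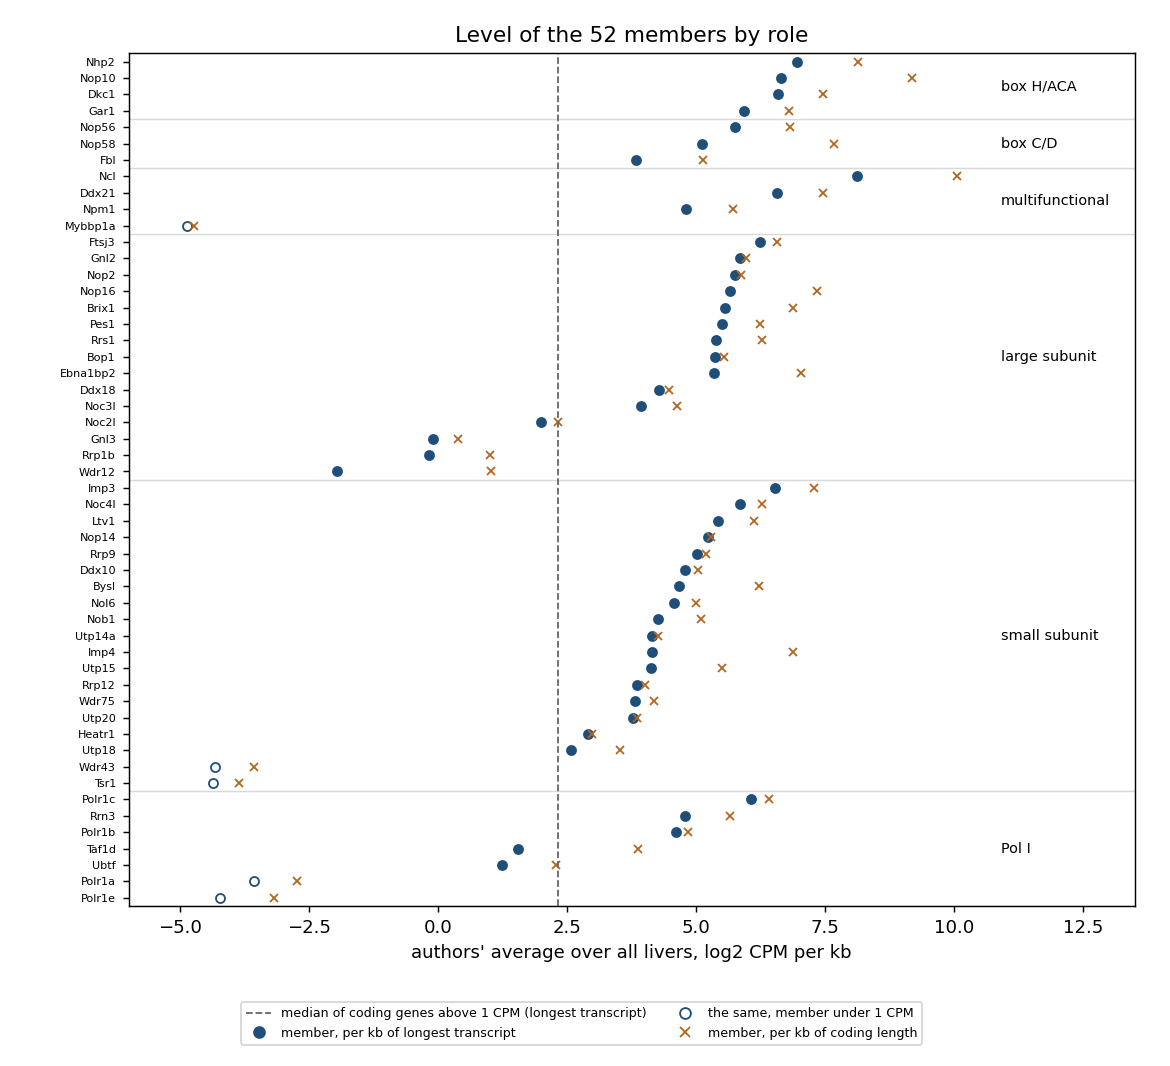
The authors' average level of each of the 52 members, in log2 CPM per kb of the longest transcript (circles; open where the gene is under 1 CPM) and per kb of coding length (crosses), grouped by role, with the median of coding genes above 1 CPM as a dashed line at 2.32 for the longest transcript. All 4 box H/ACA genes lie right of the line, and the 5 open circles are Mybbp1a, Wdr43, Tsr1, Polr1a and Polr1e.

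The rest of the pathway had a lower listed median than the 52 genes. Of 106 further ribosome biogenesis genes in the table, 82 were above 1 CPM, and their median was 9.80 CPM per kb, against 26.4 for the 52 genes. With the other polymerase genes added, 38 of 129 had 2 or more curated transcripts, against 9 of the 52. Among genes with 1 such transcript the medians were 5.77 and 6.46 log2 CPM, before division by length. The part of low listings in the gap was not tested. Among the 40 further small subunit factors, Riok3 was highest at 107 CPM per kb and Tbl3 was at the lowest value. Among the 45 further large subunit factors, Rsl1d1 was highest at 144 CPM per kb and Ppan was at the lowest value. Of the 13 exosome and nuclease genes 8 were above 1 CPM, and Exosc2 was highest at 48.2 CPM per kb. Dis3, listed at -1.88 log2 CPM, was lowest per kb. Before division by length Exosc10 was lowest, at -2.44 log2 CPM.

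The tissue label was checked with marker genes. All 9 hepatocyte markers were above 1 CPM, with Alb at 31128 CPM per kb, and 6 of 7 erythroid markers in the table were, with Hba-a2 at 89725 CPM per kb. The 4 myeloid progenitor markers were above 1 CPM (Mpo, 276 CPM per kb), as were 4 of 5 endothelial, 4 of 5 mesenchymal, 2 of 3 megakaryocyte, 3 of 6 macrophage, 2 of 3 progenitor and 3 of 5 pancreatic acinar markers. For scale, 54.9% of all protein coding genes were at 1 CPM or less. The progenitor markers above 1 CPM were Myb at 2.84 and Cd34 at 1.14 CPM. Among the markers under 1 CPM were the erythroid Alas2 (0.704 CPM) and the macrophage genes Csf1r, Cd68 and Emr1. Of the 4 proliferation markers 3 were above 1 CPM, with Mki67 at 553, Pcna at 345 and Top2a at 92.5 CPM per kb, and Mcm5 was at the lowest value. The progenitor marker Kit, the endothelial Pecam1 and the mesenchymal Pdgfrb were also at or close to the lowest value. In a whole liver, more cells of a type and more RNA per cell cannot be told apart.

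Features of the genome that the choice did not use were taken from GENCODE M21 and RefSeq on GRCm38, the build of mm10. They lay on 18 chromosomes, 27 of them on the plus strand. A snoRNA gene lay within the span of 8 of the 52 genes (15.4%) on the same strand, and of 3.10% of the other pathway genes. Among genes above 1 CPM it was 6 of 47 members (12.8%), against 1.90% of the 9104 coding genes. The hosts were Ncl, Nop56, Nop58, Dkc1, Taf1d, Gnl3, Wdr43 and Tsr1, with 29 snoRNA genes in all and up to 8 in Taf1d. Of these hosts, Ncl, Nop56, Nop58 and Dkc1 were above the background median per kb of the longest transcript, and Taf1d, Gnl3, Wdr43 and Tsr1 were below it. On coding length Taf1d was above the background median.

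Of the 29 snoRNA genes, 11 had a named row in the table, all of them at 0.55 log2 CPM or lower and 1 at the lowest value. Of the 29, 11 lay in introns of all host transcripts, and 18 lay in or across an exon of some host transcript. The 18 include Snord69 in Gnl3 and Snord57 in Nop56, the only 2 listed above 1 CPM. The libraries were selected for polyA, a tail that mature snoRNAs lack. Whether the selection or the overlap with host exons bears on the listed values was not tested. The 4 below show the pairing of host and cargo, with the box C (TGATGA) and box D (CTGA) letters in capitals for box C/D, and the ACA letters for box H/ACA, as GENCODE M21 gives them.
Snord110 in Nop56, chr2:130275506-130275573, plus strand: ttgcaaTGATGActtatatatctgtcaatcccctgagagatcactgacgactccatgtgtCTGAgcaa
Snord11 in Nop58, chr1:59704790-59704873, plus strand: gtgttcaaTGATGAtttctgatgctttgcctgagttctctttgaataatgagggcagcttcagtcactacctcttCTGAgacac
Snord82 in Ncl, chr1:86356261-86356330, minus strand: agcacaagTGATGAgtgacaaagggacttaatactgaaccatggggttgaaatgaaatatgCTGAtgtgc
Snora75 in Ncl, chr1:86351169-86351301, minus strand: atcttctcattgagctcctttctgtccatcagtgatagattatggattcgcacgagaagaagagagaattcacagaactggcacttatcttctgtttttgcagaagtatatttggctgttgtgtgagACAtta

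Nop56 and Nop58, 2 of the 3 box C/D protein genes among the 52, thus carry box C/D snoRNA genes of their own. Of the 10 snoRNA genes named Snord in the 52 genes, 5 held both exact boxes in the places searched (box C in the first 30 bases, box D in the last 20).

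RefSeq promoter windows, from 250 bases before to 50 after the start of a gene, were matched for 45 of the 52 genes. Fbl, Nol6, Gnl2, Bop1, Npm1, Rrs1 and Rrp12 had none. The CpG observed to expected ratio was above 0.6 in 40 of the 45 (88.9%), against 73.6% of 7184 coding genes above 1 CPM and 96.2% of the other pathway genes. The E-box CACGTG, which reads the same on both strands and is known as a site of MYC and related factors, was present in 10 of the 45 (22.2%), against 11.4% of those coding genes and 19.8% of the other pathway genes. In the 100 bases around the start it was present in 8 of the 45 (17.8%), against 4.94% of those coding genes and 14.2% of the other pathway genes. The 45 and the other pathway genes were not filtered by level, unlike those coding genes. Mybbp1a, Tsr1 and Wdr43, all under 1 CPM, were among both the 10 and the 8. Of all protein coding genes with a window, 9.35% held the E-box, and 3.96% held it in the 100 bases.

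Of the 11 E-boxes, 5 lay before the start, in Imp4, Nop2, Rrn3 and Utp18, and Rrn3 held 2. They are shown in windows of 30 bases with the motif in capitals, 5′ to 3′ on the strand of the gene.
Rrn3, chr16:13780472-13780501, plus strand: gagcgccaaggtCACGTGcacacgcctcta
Rrn3, chr16:13780639-13780668, plus strand: ttacgctctgctCACGTGggccgcgtcccg
Nop2, chr6:125131811-125131840, plus strand: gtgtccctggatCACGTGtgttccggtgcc
Imp4, chr1:34439696-34439725, plus strand: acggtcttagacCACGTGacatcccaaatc
Utp18, chr11:93885769-93885798, minus strand: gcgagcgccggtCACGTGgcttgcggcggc

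In Rrn3 the motifs began 215 and 48 bases before the start. In Nop2 the motif began 60 bases before it, in Imp4 121 and in Utp18 20 bases before it. The others, in Ltv1, Mybbp1a, Pes1, Tsr1, Utp20 and Wdr43, began within the first 50 bases of the transcript, 3 of them in genes listed at or close to the lowest value. Whether any factor binds these letters in fetal liver was not measured.

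A further 3 motifs were added after the first results were seen, each searched on both strands. CCGGAAG, a core that ETS factors such as GABPA recognise, was present in 15 of the 45 (33.3%), in 19.4% of the coding genes above 1 CPM and in 47.2% of the other pathway genes. GGGCGG, the GC-box, was present in 77.8%, 67.0% and 59.4% of these groups. TATAAA was present in 2 of the 45 (4.44%), against 8.51% of the coding genes and 8.49% of the other pathway genes.

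A coding gene started head to head with the member, on the other strand and within 1000 bases, in 13 of 52 genes (25%), against 10.0% of the coding genes above 1 CPM and 27.9% of the other pathway genes. The closest were Cfap57 with Ebna1bp2 (22 bases between the starts), Yipf3 with Polr1c (26), Ankra2 with Utp15 (33) and Ddx51 with Noc4l (34). Ddx51 is itself a ribosome biogenesis gene. Ftsj3 shared its start region with the proteasome ATPase gene Psmc5, 75 bases away, and the latter was listed at 8.04 log2 CPM.

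**Figure D4:**
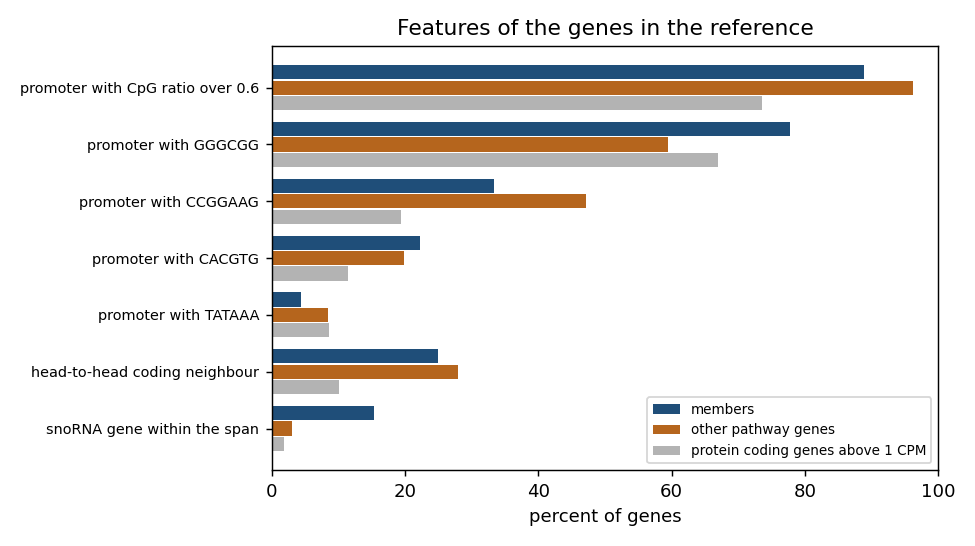
Percent of the members, of the other pathway genes and of coding genes above 1 CPM (x axis) with each feature of the reference (y axis): promoter letters and CpG ratio, a head-to-head coding neighbour, and a snoRNA gene within the span. A snoRNA gene is found in 15.4% of all members (12.8% of those above 1 CPM), 3.10% of the other pathway genes and 1.90% of the coding genes, and the E-box in 22.2%, 19.8% and 11.4%. Members and other pathway genes are shown whatever their level, while the coding genes are only those above 1 CPM.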

How the data were processed

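Fetal liver RNA was made into polyA-selected libraries and sequenced by the authors. For the authors' processing, the submitters' notes name cutadapt 1.2.1, Subread 1.3.6-p1, edgeR and mm10, and the study's methods add fastqc and biomaRt. How reads were counted per gene is not given in the sources used here. The authors deposited 1 table of 30743 genes, with the average log2 CPM over all 12 libraries and 8 columns of their diet comparison (log2 and signed fold changes, p-values and adjusted p-values with a common and a tagwise dispersion), which were not used. No count per liver was used, so the planned diet comparison was not run. The members and gene lists were chosen with earlier results of these data known.

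With a prior count of 2 assumed in the authors' edgeR average, the lowest value implies a mean effective library of 13129752 reads. A listed 1 CPM then stands for 13.1 counts in a library with the prior included, and the prior was subtracted for the read numbers given. Under that assumption the lowest listed members come out close to whole reads. A gene with few reads is imprecise, and these figures cover counting only.

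Symbols were matched to GENCODE M21 on GRCm38 (22770 rows, 1745 of them by an older symbol). Levels were divided by the longest transcript in kb, coding or not. Every member of the box C/D, box H/ACA, Pol I and multifunctional roles was named, with the 3 highest and 3 lowest per kb of the subunit roles and the highest and lowest gene of other lists. Pseudogene copies were sought with BLAST+ 2.17.0 (90% identity over 500 bases). Python 3.11.15, pandas 2.3.3, numpy 2.4.6, scipy 1.17.1 and matplotlib 3.10.9 were used, and the helper functions were tested on simulated data.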

Additional observations from a re-analysis of the deposited data

How the results depend on the processing

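The median level of the members per kb was 4.72 on the log2 scale and 5.40 per kb of coding length, while total exon length, the members with 1 curated transcript and the members above 1 CPM moved it by less than 1.5-fold. Its percentile among coding genes went from 78.6 to 87.6 among all genes with reads, 77.4 with total exon length and 71.5 with coding length. With coding length the role medians became 3.88 (Pol I, from 1.54), 6.81 (box C/D, from 5.11), 7.80 (box H/ACA, from 6.62), 6.58 (multifunctional, from 5.69) and 5.04 (small subunit, from 4.14), with box H/ACA highest on either length. With total exon length the Pol I median was 0.76. The mean was 3.91 for large subunit (median 5.36), 3.65 for multifunctional and 3.52 for small subunit. Without the members under 1 CPM, a choice made after seeing the data, Pol I was at 4.61 and multifunctional at 6.57. Above 16 CPM a snoRNA gene lay in 4 of 41 members (9.76%) and in 2.42% of coding genes. The alternatives planned for the diet comparison were not run. No paired analysis was possible because the values are averages over all livers. A gene under 1 CPM has few reads behind it, and the reason core genes are listed at the lowest value was not tested.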
